A study of Cucumis sativus with 9 samples.

Results

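Expansins and xyloglucan endotransglucosylase/hydrolases (XTHs) remodel the plant cell wall, and 61 of the 24880 genes in the deposited tables carried one of their protein domains. Members were taken by Pfam identifiers in the gene descriptions: 32 genes had both expansin domains (PF03330, the double-psi beta-barrel, and PF01357, the C-terminal domain), 3 had the double-psi beta-barrel alone, 23 had the GH16 domain (PF00722) with the XTH C-terminus (PF06955), and 3 had the GH16 domain alone. The libraries came from leaves of 3-week-old seedlings of the inbred cucumber line 9930 ('Chinese long') kept at 42 °C. HT0h (3 libraries) was sampled at the start as the control, HT3h (3 libraries) after 3 h and HT6h (3 libraries) after 6 h. All seedlings had been raised at 25 °C by day and 18 °C by night, and there were no unheated leaves of 3 h or 6 h, so that heat and the hour of sampling cannot be told apart.

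In the cell walls of most dicots, cellulose microfibrils are coated and linked by xyloglucan. Expansins, first purified from cucumber hypocotyls, loosen the bonds between these polymers without cutting them. XTHs cut a xyloglucan chain and either join the free end to another chain or hydrolyse it, which allows a wall to extend or be reinforced. Plant proteins with the double-psi beta-barrel alone include the natriuretic-peptide-like proteins, which lack the C-terminal domain of expansins. Both families are large in plants, and their members differ in the tissues and growth stages in which they are expressed.

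Gene expression was given as FPKM, the fragments on a gene scaled by its length and by a divisor for each library. The fragments on genes numbered between 18972139 and 22942239 per library. The divisor recovered from the values was not this total. It was larger than the total in HT3h_3 and in every HT6h library, and smaller in the others. Across libraries it rose and fell with a median-of-ratios factor, which compares libraries by the median ratio over genes. The FPKM values were therefore already scaled between libraries. HT3h_2 and HT6h_2, which the study set aside for poor uniformity, were the farthest from HT0h, with a mean Pearson's r across genes of 0.901 and 0.896 against values from 0.924 to 0.942 in the other heated libraries. Within HT3h, HT3h_1 had an r of 0.975 with HT3h_2 and 0.976 with HT3h_3, and HT3h_2 had 0.956 with HT3h_3. Within HT6h, HT6h_1 had an r of 0.968 with HT6h_2 and 0.982 with HT6h_3, and HT6h_2 had 0.954 with HT6h_3. The tests left out HT3h_2 and HT6h_2, as the study did, and used the other 7 libraries, whereas the FPKM values are given for all 9. limma was run on log2(FPKM + 0.1) for every gene whose mean FPKM reached 0.1. A gene was called higher or lower where its p, adjusted by Benjamini-Hochberg across the whole table, was at most 0.05 and its log2 fold change at least 1 in size. The study reports biological replicates, but nothing in the labels says that the libraries of a group came from separate plants. The p-values therefore measure the spread between these libraries.

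Of the 61 members, 38 were expressed highly enough to be tested: 19 expansins, 18 XTHs and 1 gene with the double-psi beta-barrel alone. The other 23 stayed at or below 0.310 FPKM in every library, and 12 of them had 0 fragments in all 9. None of the 3 genes with the GH16 domain alone was tested. The highest of these in HT0h was CsaV3_1G031400, with 0.310, 0 and 0.106 FPKM in the HT0h libraries, 0, 0.174 and 0 FPKM in HT3h and 0, 0 and 0 FPKM in HT6h. Of the genes with the double-psi beta-barrel alone, CsaV3_2G031980 had 2 fragments in all.

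A few genes carried much of the signal. At HT0h, the 2 highest XTHs accounted for 56.2% of the summed FPKM of their class and the 2 highest expansins for 46.8%. The summed FPKM of the 23 XTHs was 330.1, 347 and 311 in the HT0h libraries, 415, 412 and 373 in HT3h and 385, 186 and 322 in HT6h. The summed FPKM of the 32 expansins was 445, 484 and 477 in HT0h, 490.5, 339.7 and 358 in HT3h and 466, 445 and 339.9 in HT6h. HT6h_2 had the lowest XTH sum of all libraries, and all 3 HT3h libraries had a higher XTH sum than any HT0h library. The expansin sums of the 3 groups overlapped.

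**Figure D1:**
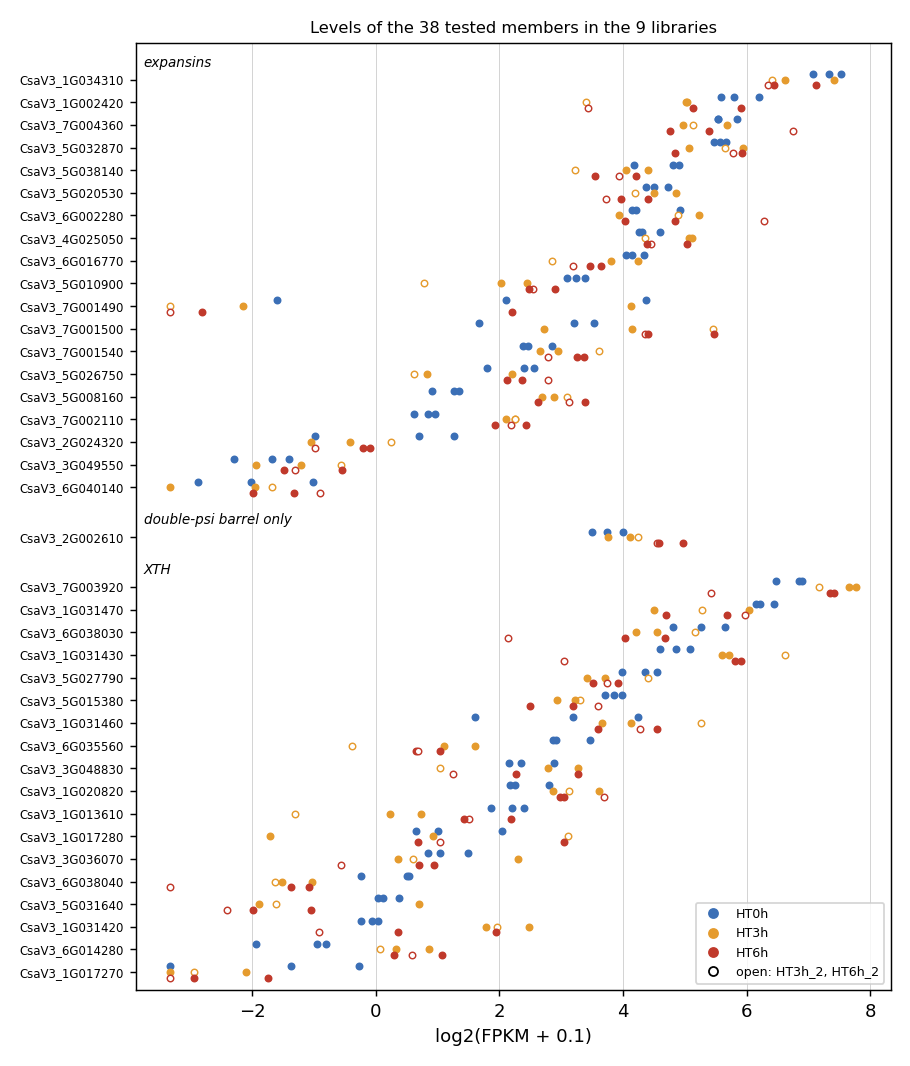
Level of each of the 38 tested members in the 9 libraries, as log2(FPKM + 0.1) on the x axis, with 1 row per gene, ordered within its class by the mean at HT0h. Points are single libraries in the colour of their group, and HT3h_2 and HT6h_2 are open; members ranged from under 1 FPKM to over 100 FPKM, and in CsaV3_7G001490 the 3 HT0h libraries themselves lay far apart.

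Individual expansin and XTH genes changed in heated leaves, but the members together were called about as often as genes in general. Limma called 7 of the 38 members at 3 h (4 higher and 3 lower than in HT0h) and 9 at 6 h (6 higher, 3 lower). Among all 19416 genes tested, 10.0% were called higher and 8.29% lower at 3 h, and 12.2% higher and 10.0% lower at 6 h. The median log2 fold change of the members was -0.22 at 3 h and -0.25 at 6 h, against -0.02 and -0.0016 over all genes tested. With all 9 libraries, 7 members were called at 3 h (4 higher, 3 lower) and 6 at 6 h (3 higher, 3 lower), where 20.4% and 22.4% of all genes were called in either direction. Leaving out HT0h_3 left 4 calls at 6 h, and leaving out HT6h_3 left 5, where 18.8% and 17.9% of all genes were called. Scaled by each library's own fragment total, 5 members were called higher and 3 lower at 3 h, against 10.9% and 6.77% of all genes, and 7 higher and 1 lower at 6 h, against 15.9% and 7.17%. Voom on the recovered fragments shares this scaling by totals. It called 5 members higher and 2 lower at 3 h (10.7% and 6.96% of all genes). At 6 h it called 6 higher and 1 lower (16.0% and 7.12%). The comparisons at 3 h and 6 h share the HT0h libraries and are not independent of each other.

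Over the 7 libraries the called expansins were all higher, whereas XTHs were called in both directions, on small counts. Of the tested expansins 10.5% were called in either direction at 3 h and 15.8% at 6 h, and of the tested XTHs 27.8% at each time. Among all genes tested, 10.0% were called higher and 8.29% lower at 3 h, and 12.2% higher and 10.0% lower at 6 h. Of the 19 expansins, limma called 2 higher and 0 lower at 3 h, and 3 higher and 0 lower at 6 h; 2 at 3 h and 3 at 6 h were lower at an unadjusted p under 0.05, and voom on the recovered fragments called 0 lower. Over all 9 libraries 1 expansin, CsaV3_5G010900, was called lower at 3 h. The median log2 fold change of the expansins was -0.15 at 3 h and -0.19 at 6 h. Of the 18 XTHs, 2 were called higher and 3 lower at each time, with a median of -0.75 at 3 h and -0.33 at 6 h. Scaled by each library's fragment total, the median of all genes moved to 0.19 at 6 h, the expansin median was 0.0036 and the XTH median -0.14, and the XTHs called were 3 higher and 1 lower. Relative to the median of all genes, the expansin median was then -0.19 and the XTH median -0.33. A difference between the classes was not tested. The gene with the double-psi beta-barrel alone was called higher at 6 h. By position of the libraries alone, all 3 HT3h libraries lay above all 3 HT0h libraries for 7 of the 38 members and below them for 7, where 26.0% and 25.5% of all genes tested did so. All 3 HT6h libraries lay above HT0h for 6 members and below for 9, against 27.1% and 27.2% of all genes.

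**Figure D2:**
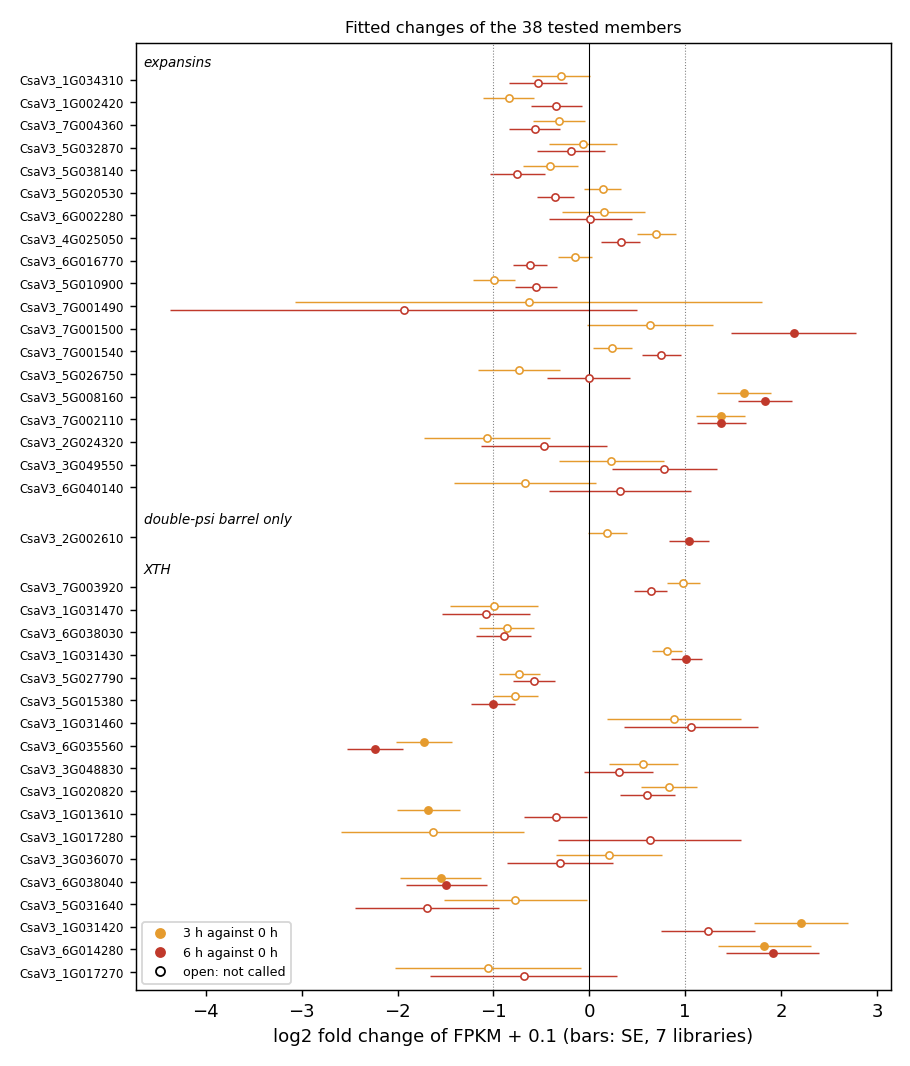
Log2 fold change of FPKM + 0.1 on the x axis for the 38 tested members, at 3 h and at 6 h against 0 h, with bars of 1 SE from limma over 7 libraries. Filled points are called and dotted lines mark a log2 fold change of 1 in either direction; called XTHs lie on both sides of 0 and the called expansins all lie to the right.

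The XTH with the largest fall among those called, at both times, was CsaV3_6G035560 (chromosome 6, 19511676 to 19515631, minus strand). It had 7.18, 7.47 and 10.9 FPKM in the HT0h libraries, 2.94, 0.663 and 2.06 FPKM in HT3h and 1.47, 1.503 and 1.96 FPKM in HT6h. Every heated library was below every HT0h library. Its log2 fold change was -1.72 (SE 0.29, limma adjusted p = 0.00501) at 3 h and -2.23 (SE 0.29, adjusted p = 0.00162) at 6 h, and the call was made under all 20 alternatives tried at both times.

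CsaV3_1G013610 (chromosome 1, 8888750 to 8890742, minus strand) was called lower at 3 h and not called at 6 h. It had 3.52, 4.52 and 5.19 FPKM in the HT0h libraries, 1.56, 0.306 and 1.07 FPKM in HT3h and 4.45, 2.74 and 2.58 FPKM in HT6h. All 3 HT3h libraries lay below the others, whereas HT6h_1 fell within the range of HT0h. The log2 fold change was -1.68 (SE 0.33, limma adjusted p = 0.00904) at 3 h, called under all 20 alternatives, and -0.35 (adjusted p = 0.435) at 6 h. The direct comparison of 6 h with 3 h gave 1.33 (adjusted p = 0.210), which did not pass the test.

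CsaV3_5G015380 (chromosome 5, 12670427 to 12674445, minus strand) was called lower at 6 h, at the edge of the fold threshold. It had 14.3, 13.0 and 15.7 FPKM in the HT0h libraries, 7.49, 9.76 and 9.23 FPKM in HT3h and 9.02, 12.0 and 5.53 FPKM in HT6h. All heated libraries lay below all HT0h libraries, with HT6h_2 nearest to them. Its log2 fold change was -0.77 (limma adjusted p = 0.0426) at 3 h and -1.004 (SE 0.23, adjusted p = 0.0148) at 6 h. Without HT6h_3 it was -0.66 (adjusted p = 0.0748) and without HT0h_3 -0.94 (0.0512 for the adjusted p), and neither was called. In all, the 6 h call was lost under 9 of the 20 alternatives, among them all 9 libraries (-0.75, adjusted p = 0.0548), array weights (-0.75), the scaling by fragment total (-0.81), voom (-0.82) and a pseudocount of 1 (-0.92).

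CsaV3_6G038040, an XTH of low expression, was also called lower at both times; it fell outside the rule for named genes and is named after its values were seen. It had 0.748, 1.32 and 1.35 FPKM in the HT0h libraries, 0.248, 0.221 and 0.387 FPKM in HT3h and 0.287, 0 and 0.374 FPKM in HT6h. The heated libraries lay below HT0h, but the levels rest on 116 fragments in all 9 libraries. The log2 fold change was -1.55 (limma adjusted p = 0.0299) at 3 h and -1.49 (adjusted p = 0.0301) at 6 h. The 3 h call was lost without HT0h_2, HT0h_3 or HT3h_1 (adjusted p = 0.0923, 0.0971 and 0.117), and the 6 h call without HT0h_2, HT0h_3, HT6h_1 or HT6h_3 (adjusted p = 0.0918, 0.0964, 0.122 and 0.0749). Of 19 alternatives, 8 lost the 3 h call and 8 the 6 h call; over all 9 libraries the 3 h value was -1.67 (adjusted p = 0.0624). Its model spans 2 RefSeq coding genes.

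Of the XTHs called higher, CsaV3_1G031420 lies over the RefSeq gene XTH1 (chromosome 1, 18565118 to 18567306, minus strand). It had 0.929, 0.860 and 0.749 FPKM in the HT0h libraries, 5.46, 3.81 and 3.33 FPKM in HT3h and 3.77, 0.428 and 1.18 FPKM in HT6h. All HT3h libraries lay above all HT0h libraries, and HT6h_2 lay below them. Its log2 fold change was 2.21 (SE 0.49, limma adjusted p = 0.0140) at 3 h and 1.24 (adjusted p = 0.0849, not called) at 6 h. Without HT3h_1 the 3 h value was 1.86 (adjusted p = 0.0775, not called), and without HT6h_3 the 6 h value was 2.04 (adjusted p = 0.0197, called). The 6 h value was 0.45 (adjusted p = 0.462) without HT6h_1 and 0.55 (adjusted p = 0.518) over all 9 libraries, neither called, whereas with array weights it was 1.51 and scaled by fragment total 1.42, both called.

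CsaV3_6G014280 (chromosome 6, 10377824 to 10380289, plus strand), also low in HT0h, was called higher at both times. It had 0.473, 0.419 and 0.162 FPKM in the HT0h libraries, 1.16, 0.948 and 1.71 FPKM in HT3h and 1.12, 1.40 and 2.01 FPKM in HT6h. Every heated library lay above every HT0h library. On the log2 scale it changed by 1.82 (SE 0.49, limma adjusted p = 0.0273) at 3 h and 1.91 (SE 0.49, adjusted p = 0.0202) at 6 h. The 3 h call was lost without HT0h_2, HT0h_3, HT3h_1 or HT3h_3 (adjusted p = 0.0526, 0.0634, 0.0572 and 0.113), and the 6 h call without HT6h_3 (adjusted p = 0.120). With a pseudocount of 1 the values were 0.85 and 0.91, under the fold threshold, and of the 20 alternatives 6 lost the call at 3 h and 3 at 6 h.

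CsaV3_1G031430 (chromosome 1, 18571728 to 18576168, minus strand) was called higher at 6 h over the 7 libraries but not over all 9. It had 33.7, 29.0 and 24.1 FPKM in the HT0h libraries, 48.3, 98.04 and 52.5 FPKM in HT3h and 56.3, 8.13 and 59.7 FPKM in HT6h. HT3h_2 was the highest library and HT6h_2 the lowest. Over the 7 libraries the log2 fold change was 0.81 (limma adjusted p = 0.00898, below the fold threshold) at 3 h and 1.01 (SE 0.16, adjusted p = 0.00327) at 6 h. Over all 9 libraries the 6 h value was 0.07 (adjusted p = 0.944), without HT0h_3 it was 0.89 and without HT6h_3 0.97, none of them called. Its listed length was 3926 bases, against a median of 1504 over the 18 tested XTHs, and 43.3% of its span lies in 1 RefSeq coding gene.

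The remaining 11 tested XTHs were not called at 3 h or 6 h. CsaV3_7G003920 (chromosome 7, 2895853 to 2898865, plus strand), the most abundant XTH, had 119.7, 114 and 88.6 FPKM in the HT0h libraries, 219, 144 and 202 FPKM in HT3h and 170.3, 42.8 and 163 FPKM in HT6h. All HT3h libraries lay above HT0h, and HT6h_2 lay below it. The log2 fold change of CsaV3_7G003920 was 0.98 (limma adjusted p = 0.00600) at 3 h and 0.64 (adjusted p = 0.0251) at 6 h, both below the fold threshold. Leaving out HT0h_1, HT0h_2 or HT3h_3 gave 1.06, 1.03 and 1.04 at 3 h, which were called, as were the 3 h values scaled by fragment total (1.05), with quantile normalization (1.05) and with voom (1.05). Over all 9 libraries the log2 fold change was 0.80 (adjusted p = 0.228) at 3 h and -0.01 (adjusted p = 0.989) at 6 h.

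CsaV3_6G038030 (chromosome 6, 21579579 to 21581174, plus strand) had 28.0, 49.996 and 38.3 FPKM in the HT0h libraries, 23.2, 35.8 and 18.5 FPKM in HT3h and 25.4, 4.28 and 16.2 FPKM in HT6h. HT6h_2 was far below the rest. Its log2 fold change was -0.86 (limma adjusted p = 0.0571) at 3 h and -0.89 (0.0457 for the adjusted p) at 6 h, and it was called lower at both times without HT0h_1 (-1.07 and -1.10). Over all 9 libraries it was -0.60 (adjusted p = 0.453) at 3 h and -1.63 (adjusted p = 0.0535) at 6 h, neither called. Over these 11 XTHs the log2 fold change lay between -1.63 and 0.98 at 3 h and between -1.69 and 1.06 at 6 h.

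**Figure D3:**
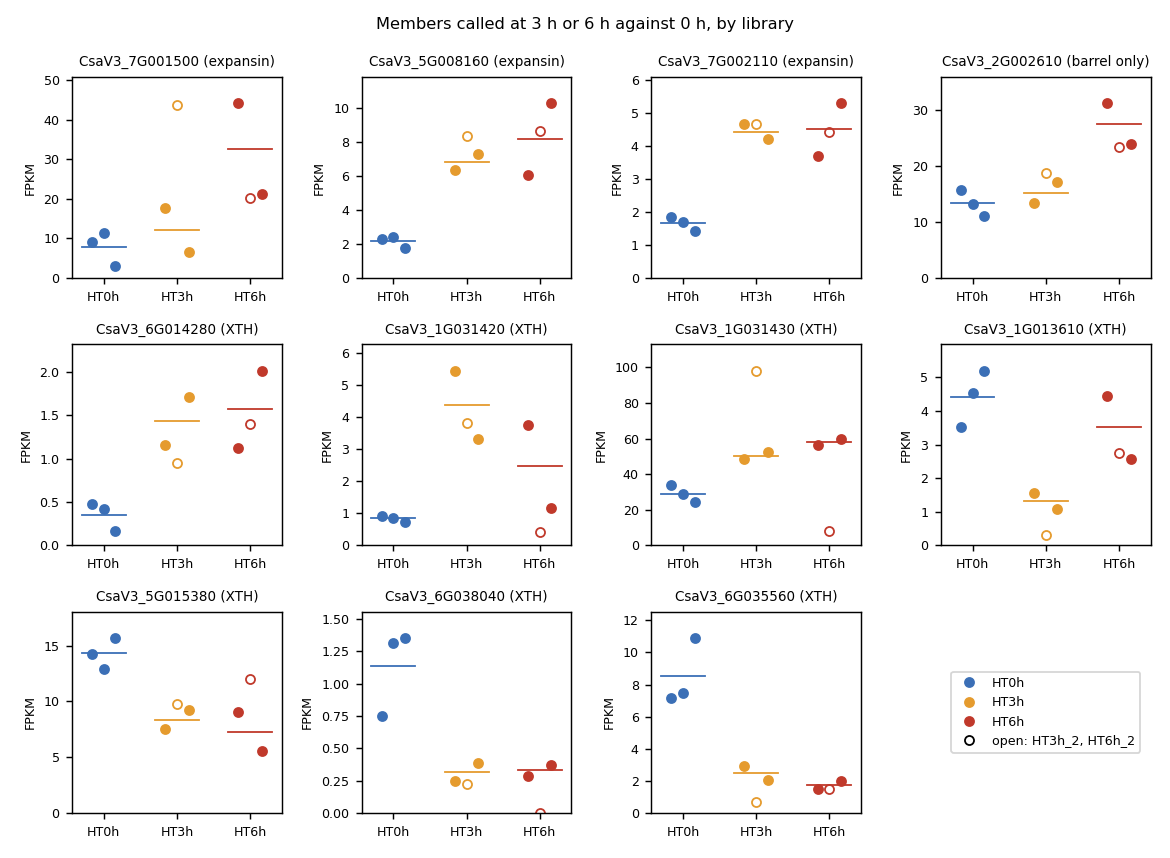
FPKM on the y axis (from 0) in the 9 libraries for the 11 members called at 3 h or 6 h against 0 h, 1 panel per gene, with the groups in time order on the x axis. Points are libraries, open for HT3h_2 and HT6h_2, and lines are means over the 7 libraries; in CsaV3_6G035560 all HT0h points lie above 7 FPKM and all heated points below 3 FPKM, and in CsaV3_1G031430 HT6h_2 lies at 8.13 FPKM beneath the other HT6h libraries.

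Of the expansins, CsaV3_5G008160 (chromosome 5, 4890874 to 4896688, minus strand) was called higher at both times. It had 2.30, 2.44 and 1.79 FPKM in the HT0h libraries, 6.35, 8.39 and 7.31 FPKM in HT3h and 6.10, 8.64 and 10.3 FPKM in HT6h. Every heated library lay above every HT0h library. The fold change on the log2 scale was 1.62 (SE 0.28, limma adjusted p = 0.00561) at 3 h and 1.83 (SE 0.28, adjusted p = 0.00297) at 6 h, and both were called under all 20 alternatives.

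CsaV3_7G002110 (chromosome 7, 1682194 to 1686923, plus strand) was likewise called higher at both times and under all 20 alternatives. It had 1.84, 1.69 and 1.44 FPKM in the HT0h libraries, 4.67, 4.69 and 4.21 FPKM in HT3h and 3.71, 4.43 and 5.30 FPKM in HT6h. Every heated library lay above every HT0h library. The fitted log2 fold change was 1.37 (SE 0.26, limma adjusted p = 0.00732) at 3 h and 1.37 (SE 0.26, adjusted p = 0.00620) at 6 h.

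These 2 models were much longer than the other 17 tested expansins, which ranged from 759 to 1742 bases: CsaV3_5G008160 was listed with 4163 bases and CsaV3_7G002110 with 4168. By position in the RefSeq annotation of the assembly Cucumber_9930_V3, 49.0% of the span of CsaV3_5G008160 lies in 1 coding gene and another stretch covers a gene for a long non-coding RNA. CsaV3_7G002110 covers parts of 2 coding genes, and the tables list CsaV3_7G002130, on the opposite strand, across its end. CsaV3_7G002130, with no Pfam domain listed, had 8.68, 12.1 and 15.7 FPKM in the HT0h libraries, 43.0, 33.1 and 40.1 FPKM in HT3h and 31.1, 45.2 and 40.7 FPKM in HT6h, a log2 fold change of 1.81 at 3 h (limma adjusted p = 0.00254) and of 1.58 at 6 h (adjusted p = 0.00327). Which transcript under such a model gave the fragments cannot be told apart from these values. Without members over 2 or more RefSeq genes of any kind, an alternative chosen after the data were seen, 4 members were called at 3 h (2 higher, 2 lower) and 6 at 6 h (4 higher, 2 lower).

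CsaV3_7G001500 (chromosome 7, 1294094 to 1296068, plus strand) was the third expansin called, higher at 6 h. It had 9.16, 11.4 and 3.09 FPKM in the HT0h libraries, 17.6, 43.7 and 6.53 FPKM in HT3h and 44.1, 20.3 and 21.1 FPKM in HT6h. HT6h libraries lay above HT0h, whereas HT3h_3 lay within the HT0h range, and the replicates of each group were far apart. On the log2 scale it changed by 0.63 (limma adjusted p = 0.494) at 3 h and 2.13 (SE 0.65, adjusted p = 0.0391) at 6 h. At 6 h the adjusted p was 0.0637 without HT0h_1, 0.0757 without HT0h_3, 0.220 without HT6h_1 and 0.0710 without HT6h_3. The call was also lost over all 9 libraries (1.93, adjusted p = 0.0589) and with no mean-variance trend (adjusted p = 0.0659).

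The most abundant expansins were not called over the 7 libraries. CsaV3_1G034310 (chromosome 1, 21492231 to 21494342, minus strand) had 135, 184 and 162 FPKM in the HT0h libraries, 171, 85.4 and 97.9 FPKM in HT3h and 139, 81.5 and 86.9 FPKM in HT6h, and CsaV3_1G034310 changed by -0.30 (limma adjusted p = 0.487) at 3 h and -0.53 (0.203 for the adjusted p) at 6 h on the log2 scale. The model of CsaV3_1G002420 (chromosome 1, 1529037 to 1529941, minus strand) matched the RefSeq symbols LOC101222936 and nad4 by chromosome label and position alone. Whether nad4 lies on the same sequence was not checked. CsaV3_1G002420 had 55.4, 48.1 and 73.8 FPKM in the HT0h libraries, 32.6, 10.5 and 32.2 FPKM in HT3h and 34.9, 10.7 and 60.3 FPKM in HT6h. HT3h_2 and HT6h_2 were the lowest libraries for it. Its log2 fold change was -0.84 (adjusted p = 0.0472) at 3 h and -0.34 (adjusted p = 0.344) at 6 h by limma. Over all 9 libraries CsaV3_1G002420 had -1.38 (adjusted p = 0.121) at 3 h and -1.04 (adjusted p = 0.224) at 6 h, and with array weights it was called lower at 3 h (-1.02, adjusted p = 0.0462). CsaV3_7G004360 (chromosome 7, 3137269 to 3140488, minus strand) had 46.4, 46.4 and 57.5 FPKM in the HT0h libraries, 51.5, 34.8 and 31.1 FPKM in HT3h and 41.7, 107 and 27.0 FPKM in HT6h, with HT6h_2 alone far above the rest. Over the 16 expansins not called, the log2 fold change lay between -1.07 and 0.70 at 3 h and between -1.93 and 0.78 at 6 h.

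A pair of expansins lie over RefSeq genes with expansin symbols and are given here for those names, outside the rule for named genes. CsaV3_5G010900, over CS-EXPA1, had 9.33, 8.40 and 10.3 FPKM in the HT0h libraries, 3.99, 1.62 and 5.38 FPKM in HT3h and 7.35, 5.75 and 5.45 FPKM in HT6h. Every heated library lay below every HT0h library, and the log2 fold change was -0.99 (limma adjusted p = 0.0141) at 3 h, just short of the fold threshold, and -0.55 (adjusted p = 0.0879) at 6 h. CsaV3_2G024320, over CS-EXPA2, had 1.52, 2.31 and 0.408 FPKM in the HT0h libraries, 0.646, 1.09 and 0.382 FPKM in HT3h and 0.841, 0.408 and 0.768 FPKM in HT6h. Its groups overlapped, and neither time passed the test (adjusted p = 0.255 at 3 h and 0.604 at 6 h by limma).

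The gene with the double-psi beta-barrel alone, CsaV3_2G002610 (chromosome 2, 1139583 to 1140143, plus strand), was called higher at 6 h. It had 15.8, 13.3 and 11.2 FPKM in the HT0h libraries, 13.4, 18.9 and 17.1 FPKM in HT3h and 31.3, 23.4 and 24.0 FPKM in HT6h. All HT6h libraries lay above all HT0h libraries, and HT3h overlapped HT0h. The log2 fold change was 0.19 (limma adjusted p = 0.520) at 3 h and 1.04 (SE 0.21, adjusted p = 0.00824) at 6 h. Over all 9 libraries the 6 h value was 0.96, without HT0h_3 it was 0.91 and without HT6h_1 0.85, each under the fold threshold.

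Between 6 h and 3 h, 0 of the 38 members were called with limma on FPKM, and limma voom on the recovered fragments called 0. An unadjusted p under 0.05 was found for 3 members, CsaV3_2G002610, CsaV3_6G016770 and CsaV3_1G013610, the second of which is named only for this. With array weights over all 9 libraries, CsaV3_2G002610 was called higher at 6 h than at 3 h, where 2.80% of all genes were called. Among all genes 0.201% were called in this comparison, and 0.375% over all 9 libraries.

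Several members lie beside each other, within 50 kb. A run of 6 on chromosome 1 holds CsaV3_1G031400, CsaV3_1G031420 (XTH1), CsaV3_1G031430, CsaV3_1G031450, CsaV3_1G031460 (XTH3) and CsaV3_1G031470. Neighbours differed in level. CsaV3_1G031470, the second most abundant XTH, had 71.0, 86.7 and 74.1 FPKM in the HT0h libraries, 65.5, 38.7 and 22.6 FPKM in HT3h and 51.5, 62.6 and 25.8 FPKM in HT6h. All heated libraries lay below all HT0h libraries, but with a wide spread the log2 fold changes of -0.999 at 3 h (limma adjusted p = 0.138) and -1.08 at 6 h (adjusted p = 0.105) did not pass the test. It was called lower at 3 h without HT3h_1 (-1.77, adjusted p = 0.0201) and at 6 h without HT3h_1 or HT3h_3 (adjusted p = 0.0272 and 0.0287) or in the fit of HT0h and HT6h alone (adjusted p = 0.0265). Without HT3h_3 the 3 h value was -0.23 (adjusted p = 0.665), and without HT6h_3 the 6 h value was -0.58 (adjusted p = 0.471).

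CsaV3_1G031460, over the RefSeq gene XTH3, had 9.02, 2.96 and 18.9 FPKM in the HT0h libraries, 12.5, 38.3 and 17.5 FPKM in HT3h and 23.2, 19.2 and 12.1 FPKM in HT6h. HT3h_2 was the highest library and HT0h_2 the lowest, and the groups overlapped. CsaV3_1G031450 and CsaV3_1G031400 stayed near 0 in this run, while CsaV3_1G031420 and CsaV3_1G031430 were called higher at one time each (above).

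A run of 6 expansins on chromosome 7 holds CsaV3_7G001490 to CsaV3_7G001540. CsaV3_7G001520 and CsaV3_7G001530 had 0 fragments in all 9 libraries and CsaV3_7G001510 had 1. CsaV3_7G001490 had 20.6, 4.20 and 0.230 FPKM in the HT0h libraries, 0.127, 0 and 17.4 FPKM in HT3h and 0.0418, 0 and 4.50 FPKM in HT6h. The highest and lowest HT0h libraries differed 89.3-fold. Of the 16150 tested genes above 0 in every HT0h library and with a mean of 1 FPKM or more there, only 4 differed more. No comparison of CsaV3_7G001490 between times passed the test. CsaV3_7G001540 had 7.09, 5.11 and 5.43 FPKM in the HT0h libraries, 7.58, 12.1 and 6.24 FPKM in HT3h and 10.2, 6.82 and 9.49 FPKM in HT6h, with a log2 fold change of 0.75 at 6 h (limma adjusted p = 0.0257), under the fold threshold. The other runs were pairs of XTHs: CsaV3_1G017270 with CsaV3_1G017280, CsaV3_1G020800 with CsaV3_1G020820, CsaV3_2G007960 with CsaV3_2G007980, and CsaV3_6G038030 with CsaV3_6G038040. How fragments shared by such similar neighbours were counted is not given in the sources used here.

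**Figure D4:**
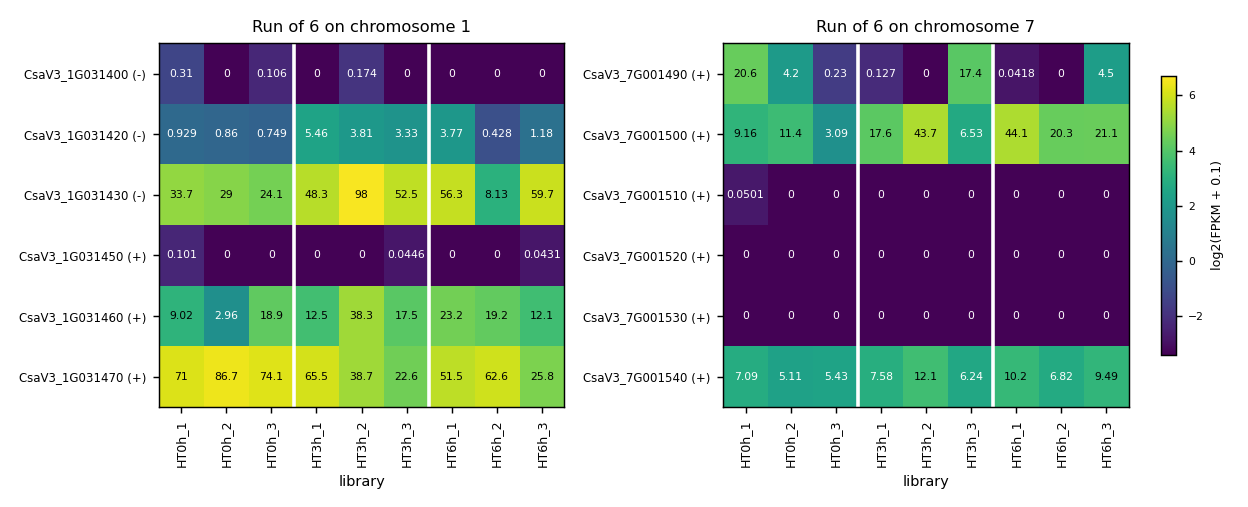
FPKM (numbers in the cells) in the 9 libraries (x axis, in time order) for the members of the 2 runs of 6, in order along chromosomes 1 and 7 with the strand of each gene; colour is log2(FPKM + 0.1). In both runs highly expressed members stand beside members at or near 0, and CsaV3_7G001490 varies within each group.

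The HT0h libraries were farther apart for the members than for genes generally, as a description with no test. The highest HT0h library was compared with the lowest for tested genes above 0 in every HT0h library and with a mean of 1 FPKM or more there. It was a median of 1.47 times the lowest for 33 members, against 1.25 times for all 16150. HT6h_2 was below 0.5 times both other HT6h libraries for 10 of the 38 members (26.3%), against 8.29% of all 19416 genes tested. By class these were 8 of 18 XTHs (44.4%) and 2 of 19 expansins (10.5%). HT3h_2 was below 0.5 times both other HT3h libraries for 6 members (15.8%), against 7.16% of all genes. These shares are descriptions of 2 libraries with no test.

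**Figure D5:**
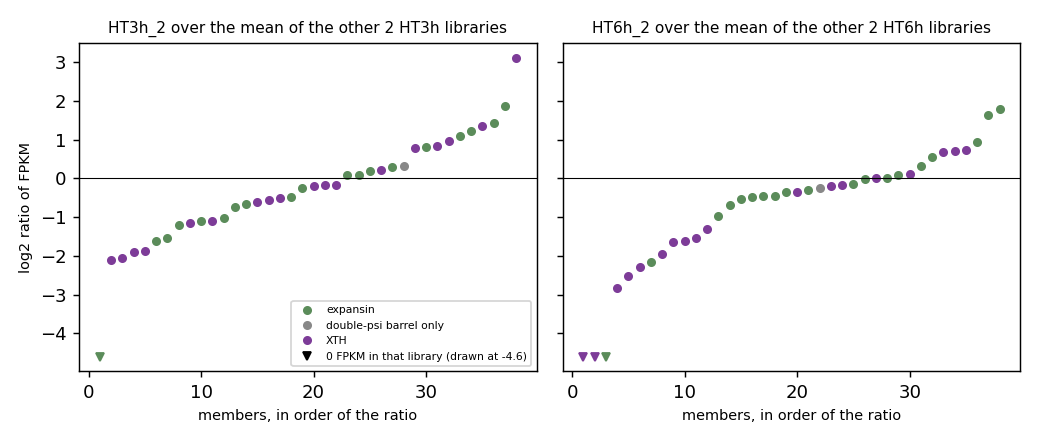
Log2 ratio on the y axis of the FPKM in HT3h_2 (left) and HT6h_2 (right) to the mean of the other 2 libraries of its group, for the 38 tested members in order of that ratio, coloured by class. Triangles are members at 0 FPKM in that library; in HT6h_2, 8 of 18 XTHs are below 0.5 times both other libraries.

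Genes of other wall functions were taken from lists by Pfam domain, and no list was tested as a set. For comparison with the counts of every list, 10.0% of all genes tested were called higher and 8.29% lower at 3 h, and 12.2% higher and 10.0% lower at 6 h. The genes named were picked for large changes among the called genes of their lists. Of 15 tested GH9 genes, endoglucanases that cut beta-1,4-glucans, 1 was called higher and 3 lower at 3 h, and 1 higher and 2 lower at 6 h. Their member CsaV3_3G000830 had 28.0, 35.5 and 38.0 FPKM in the HT0h libraries, 8.24, 5.39 and 3.67 FPKM in HT3h and 10.3, 5.62 and 4.22 FPKM in HT6h. All heated libraries were below all HT0h libraries, with a log2 fold change of -2.59 at 3 h (limma adjusted p = 0.00544) and -2.32 at 6 h (adjusted p = 0.00689).

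Of 30 tested genes with a cellulose synthase domain, 2 were called higher and 3 lower at 3 h, and 3 higher and 2 lower at 6 h. CsaV3_2G009180 had 0.320, 0.434 and 0.525 FPKM in the HT0h libraries, 11.4, 14.1 and 6.59 FPKM in HT3h and 7.80, 6.54 and 7.92 FPKM in HT6h, with a log2 fold change of 4.08 at 3 h and 3.94 at 6 h (limma adjusted p = 0.000374 and 0.000327). CsaV3_4G001030 had 27.3, 25.6 and 30.6 FPKM in the HT0h libraries, 1.999, 0.133 and 1.74 FPKM in HT3h and 1.71, 2.04 and 1.94 FPKM in HT6h, where the log2 fold change was -3.83 at 3 h and -3.86 at 6 h (limma adjusted p = 5.95e-05 and 4.19e-05). Neither gene had a heated library within the range of HT0h.

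Among the enzymes that trim xyloglucan, 13 tested GH35 genes, which include beta-galactosidases, had 0 called at 3 h by limma and by voom (7 at an unadjusted p under 0.05) and 1 lower at 6 h, and 5 tested GH31 genes, which include alpha-xylosidases, had 1 higher and 1 lower at each time. GH31 gene CsaV3_1G046750 had 28.2, 25.6 and 30.9 FPKM in the HT0h libraries, 71.8, 66.8 and 49.0 FPKM in HT3h and 75.5, 66.5 and 62.7 FPKM in HT6h. Every heated library of CsaV3_1G046750 lay above every HT0h library, with a log2 fold change of 1.07 at 3 h and 1.29 at 6 h (limma adjusted p = 0.00630 and 0.00272). Of the 3 xyloglucan fucosyltransferase genes 0 were called at either time by limma or by voom, and 1 at 3 h had an unadjusted p under 0.05 by limma. Of 7 tested COBRA-like genes 2 were called higher at 3 h and 1 at 6 h, and of 15 fasciclin-like genes 1 higher and 1 lower at 3 h, and 1 higher and 2 lower at 6 h.

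Some markers of leaf cell types were also called, and their part in the changes of the members was not tested. Beside their counts, 10.0% of all genes tested were called higher and 8.29% lower at 3 h, and 12.2% higher and 10.0% lower at 6 h. The summed FPKM of 21 mesophyll genes (chlorophyll a/b binding proteins and the Rubisco small chain) ranged from 70484 to 79926 in HT0h, from 29453 to 88181 in HT3h and from 21092 to 48555 in HT6h, and 1 of the 21 was called lower at 3 h and 9 at 6 h. Of 31 cyclin genes, taken as markers of dividing cells, 7 were called lower and 2 higher at 3 h, and 9 lower and 2 higher at 6 h; their sum ranged from 885 to 935 FPKM in HT0h, from 479 to 653 in HT3h and from 511 to 559.9 in HT6h. Of 14 fatty acid elongase genes, taken by their domain as markers of the epidermis, 2 were called lower and 1 higher at 3 h. At 6 h 3 were called lower and 2 higher. The sums of these 14 genes ranged from 317 to 373 FPKM in HT0h, from 144 to 207 in HT3h and from 133 to 212 in HT6h. Of 9 phloem sieve element occlusion genes 4 were lower and 1 higher at 3 h, and 2 lower and 1 higher at 6 h, with sums from 86.9 to 138 FPKM in HT0h, from 49.7 to 60.0 in HT3h and from 46.1 to 82.6 in HT6h. None of these markers was at 0 in all 9 libraries. In whole leaves, fewer cells of a type and less RNA per cell cannot be told apart.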

How the data were processed

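RNA-seq of 9 leaf libraries was analysed. The authors deposited FPKM values per gene, with positions on the cucumber 9930 genome (v3.0). The submitters' processing notes name CASAVA 1.8, HISAT2 2.0.5, StringTie 1.3.3b and featureCounts 1.5.0-p3; strandedness is not given in the sources used here. FPKM times gene length and the divisor of its library gave whole fragments for 100% of values (within 0.02). Limma 3.58.1 in R 4.3.3 was fitted to log2(FPKM + 0.1) of 7 libraries, with the 3 times in 1 model, trended empirical Bayes moderation (4 degrees of freedom left), and was tested on simulated data. Limma voom on the recovered fragments called 2079 genes higher and 1352 lower at 3 h, and 3115 higher and 1382 lower at 6 h. Positions, not IDs (0 matched), linked genes to RefSeq, with an overlap of 200 bases or more: 86.3% of 23522 genes lay over a coding gene.

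Genes named were: up to 12 called members per time with the largest change and a mean of 1 FPKM or more, the 3 highest per class at HT0h, members called at 6 h against 3 h, called members with 0 fragments in all HT0h or all heated libraries (none), and runs within 50 kb. Related lists give up to 3 called genes each. Members, lists and tests were chosen with earlier results of these data known.

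Alternatives were all 9 libraries, array weights, pseudocounts of 1 and 0.01, the replicate number as block, no filter, a mean of 1 FPKM or more, other scalings, voom, no trend, only the groups compared, and leaving out each library.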

Additional observations from a re-analysis of the deposited data

Results flagged for a closer look

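4 values in the libraries left out of the 7-library comparisons were over 1.5 times the highest of those 7 libraries. In HT3h_2, the XTH CsaV3_1G031430 reached 98.04 FPKM, and CsaV3_1G031460 (XTH3) reached 38.3 FPKM. In HT6h_2, the expansins CsaV3_6G002280 and CsaV3_7G004360 reached 77.6 and 107 FPKM. No group held the 4 libraries needed to test for an outlying sample, and no member passed the test of a difference between 6 h and 3 h.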

How the results depend on the processing

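Over the named genes and the 20 alternatives run, no value reversed its sign past the threshold; 608 values kept their side of it, 52 lost the call and 18 gained one. Of the 16 calls, 7 were made under every alternative: those of CsaV3_5G008160, CsaV3_7G002110 and CsaV3_6G035560 at both times, and that of CsaV3_1G013610 at 3 h. The count of members called at 6 h was 9 and fell to 4 with a pseudocount of 1 (18.1% of all genes). Leaving out single libraries gave 7 to 9 calls at 3 h, 4 to 11 at 6 h (4 without HT0h_3, 5 without HT6h_3) and 0 to 0 at 6 h against 3 h; with an HT3h or HT6h library left out, the lone library of that group was assumed to vary like the others. Array weights over 9 libraries called 1 member at 6 h against 3 h. Leaving out members over 2 or more RefSeq genes, coding or not (chosen after the data were seen), left 4 at 3 h, and over 2 or more coding genes 5. Scaling per fragment total shifted the median log2 fold change of all genes to 0.05 at 3 h and 0.19 at 6 h, and called 5 members higher and 3 lower at 3 h (10.9% and 6.77% of all genes) and 7 higher and 1 lower at 6 h (15.9% and 7.17%). Voom called 5 higher and 2 lower at 3 h (10.7% and 6.96%), and 6 higher and 1 lower at 6 h (16.0% and 7.12%). With array weights 4 were higher and 6 lower at 3 h (12.9% and 12.4%). CsaV3_6G038040 was not tested at a mean of 1 FPKM or more. The causes were not tested.

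Whether replicate numbers pair the libraries is not given in the labels. Deviations of same-numbered libraries had r between -0.23 and 0.48, against -0.39 to 0.22 for libraries of different number. The highest were HT3h_3 with HT6h_3 (0.48) and HT3h_2 with HT6h_2 (0.31). Same-numbered pairs that included HT0h had r between -0.23 and 0.03, and pairing was not tested. With a replicate block 6 members were called at each time over 7 libraries, and 8 and 7 over 9. Of all genes, 15.1% and 18.9% were called over 7 libraries, and 21.7% and 23.6% over 9. The block over 7 libraries lost the calls of CsaV3_6G014280 and CsaV3_6G038040 at both times and of CsaV3_5G015380 at 6 h, and gained CsaV3_7G003920 at 3 h. The block over 9 libraries lost CsaV3_6G038040 at 3 h and CsaV3_1G031430, CsaV3_2G002610 and CsaV3_5G015380 at 6 h, and gained CsaV3_1G002420 at 3 h. Gained calls were followed only for genes named by the rule, and the counts over 9 libraries hold further members at both times.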
